A study of Homo sapiens with 18 samples.

Results

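Among the transcripts counted in these cells were those of 10 secreted or receptor proteins that act on blood vessels, namely VEGFA, VEGFB, VEGFC, PGF, FLT1, NRP1, ADM, ADM2, EDN1 and ANGPTL4. They are a list of names, set up for their known vascular roles by a choice made with earlier results of these data known, and were matched by symbol. All 10 were found among the 23106 genes of the count table. PolyA+ RNA was sequenced from 18 samples of 3 established human cell lines, with 3 normoxic and 3 hypoxic samples of each line. HKC-8 is a renal tubule cell line, RCC4 a renal carcinoma line stably transfected here with wild-type VHL, and HepG2 a liver carcinoma line. Hypoxic HKC-8 and HepG2 cells are labelled as held at 0.5% oxygen for 16 h, although the HKC-8 titles name 0.1% instead. Hypoxic RCC4 cells are labelled as held at 1% for 24 h, whereas a figure legend of the study gives 0.5% for 16 h for all 3 lines. For this reason RCC4 values are set beside those of the other lines without a test of the difference in response. Titles give 21% oxygen for normoxic HKC-8 cells, and no figure is given for the other normoxic samples. Each line is a tumour or immortalised culture grown alone, without the vessels on which these proteins act in tissue, and every RCC4 sample carries the VHL transgene.

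Vascular endothelial growth factors are secreted dimers that bind receptor tyrosine kinases on endothelial cells. VEGFA is the main driver of vessel sprouting, VEGFB and placental growth factor (PGF) bind FLT1 and not KDR among the receptor kinases, and VEGFC acts chiefly on lymphatic endothelium through FLT4. FLT1 binds VEGFA tightly with weak kinase activity, and neuropilin 1 (NRP1) is a co-receptor for VEGFA, VEGFB and PGF and a receptor for semaphorins. Adrenomedullin (ADM) and adrenomedullin 2 (ADM2, intermedin) are vasodilator peptides of the calcitonin family. Endothelin 1 (EDN1) is a strong vasoconstrictor peptide, and angiopoietin-like 4 (ANGPTL4) is a secreted inhibitor of lipoprotein lipase that also affects vessel permeability. In hypoxia the transcription factors HIF-1 and HIF-2 escape VHL-dependent destruction and bind the core sequence ACGTG or GCGTG, and VEGFA is among their best known targets in kidney and liver cells.

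Total counts were 75441764 to 97984260 per sample in HKC-8 cells and 40915980 to 51794355 in the other lines, and depth cannot be told apart from cell line. Levels are given as CPM, the count divided by the total count of the sample on the usual scale of this unit. The level set by 3 counts was 0.0306 to 0.0733 CPM of the total, a limit that covers counting error only. Marker levels in this paragraph were also scaled by the TMM method over all 18 samples, which that limit was not. Of 10 genes listed as a check of hypoxia (NDRG1, PDK1 and others), all 10 rose in HKC-8 and HepG2 cells, as did the 8 that could be tested in RCC4 cells. The summed level of 6 hepatocyte markers was 22257 to 28169 CPM in HepG2 cells and at most 10.6 CPM in the kidney lines. That of 6 renal epithelial markers was 134 to 182 CPM in HKC-8, 298 to 404 CPM in RCC4 and 11.8 to 17.8 CPM in HepG2 cells. Nearly all of the HKC-8 sum was PAX8 (129 to 180 CPM), and CDH16 levels in HKC-8 cells overlapped those in HepG2 cells. PAX2, CUBN and AQP1 stood at 0.695 CPM or less in every HKC-8 sample, and LRP2 had at most 3 counts in each. Of 8 endothelial markers, PECAM1 and KDR had at most 3 counts in every sample of both kidney lines, and TEK and KDR in every HepG2 sample. Their summed level was 2.10 to 2.90 CPM in normoxic and 3.46 to 4.71 CPM in hypoxic HKC-8 cells, where TEK and VWF passed the test as higher. Both were near the floor there, TEK at 0 to 0.0660 CPM in normoxia and 0.266 to 0.388 CPM in hypoxia. VWF stood at 0.0719 to 0.154 CPM and 0.157 to 0.562 CPM. The summed endothelial level was 2.01 to 3.00 CPM in RCC4 cells, and 34.2 to 49.9 CPM in normoxic against 44.6 to 61.4 CPM in hypoxic HepG2 cells, where none of 6 tested markers passed. Most of the HepG2 sum was ESAM (24.2 to 48.1 CPM), with TIE1 at 6.51 to 11.1 CPM and PECAM1 at 1.06 to 2.17 CPM. Whether other cells contributed to any result was not tested.

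Levels below are CPM scaled by the TMM method over all 18 samples, and ± gives the SD of 3 samples. Responses are log2 fold changes of hypoxia over normoxia, with their standard error (SE), from edgeR's quasi-likelihood test fitted to all genes of 1 cell line, and adjusted p-values are those of this test after Benjamini-Hochberg adjustment. A gene is said to rise or fall where the adjusted p is under 0.05. In HKC-8 cells 4 of 10 tested factors passed, all higher (VEGFA, ADM, ADM2 and ANGPTL4), where 20.4% of all 13536 tested genes passed, 11.2% as higher and 9.12% as lower. With the replicate number as a block, 8 of 10 passed, with VEGFB and EDN1 added as higher and VEGFC and NRP1 as lower. Of all genes 42.5% passed in that fit, 21% as higher and 21.6% as lower. Same-numbered samples of this line deviated together clearly for replicates 2 and 3 but not for replicate 1, so this pairing is uncertain. Among RCC4 samples 7 of 9 tested factors passed, against 50.1% of 12811 genes. There, 4 were higher (VEGFA, ADM, EDN1 and ANGPTL4) against 25.9% of all genes, and 3 were lower (PGF, NRP1 and ADM2) against 24.2%. In HepG2 cells 5 of 8 tested factors passed, all higher (VEGFA, VEGFB, ADM, EDN1 and ANGPTL4), against 39.1% of 13623 genes in either direction and 19.9% as higher. At least 2-fold higher were 4 factors of HKC-8, 3 of RCC4 and 5 of HepG2 cells, against 3.96%, 2.07% and 4.13% of the genes tested. The median log2 fold change over the factors tested was 0.69, 0.06 and 1.36 in the same order, and over all genes it was 0.00 in each line. FLT1 was left out by the low-count filter in RCC4 cells, and FLT1 and VEGFC in HepG2 cells. VEGFA, ADM and ANGPTL4 thus rose in all 3 lines, and EDN1 did so too where the HKC-8 fit held the block.

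**Figure D1:**
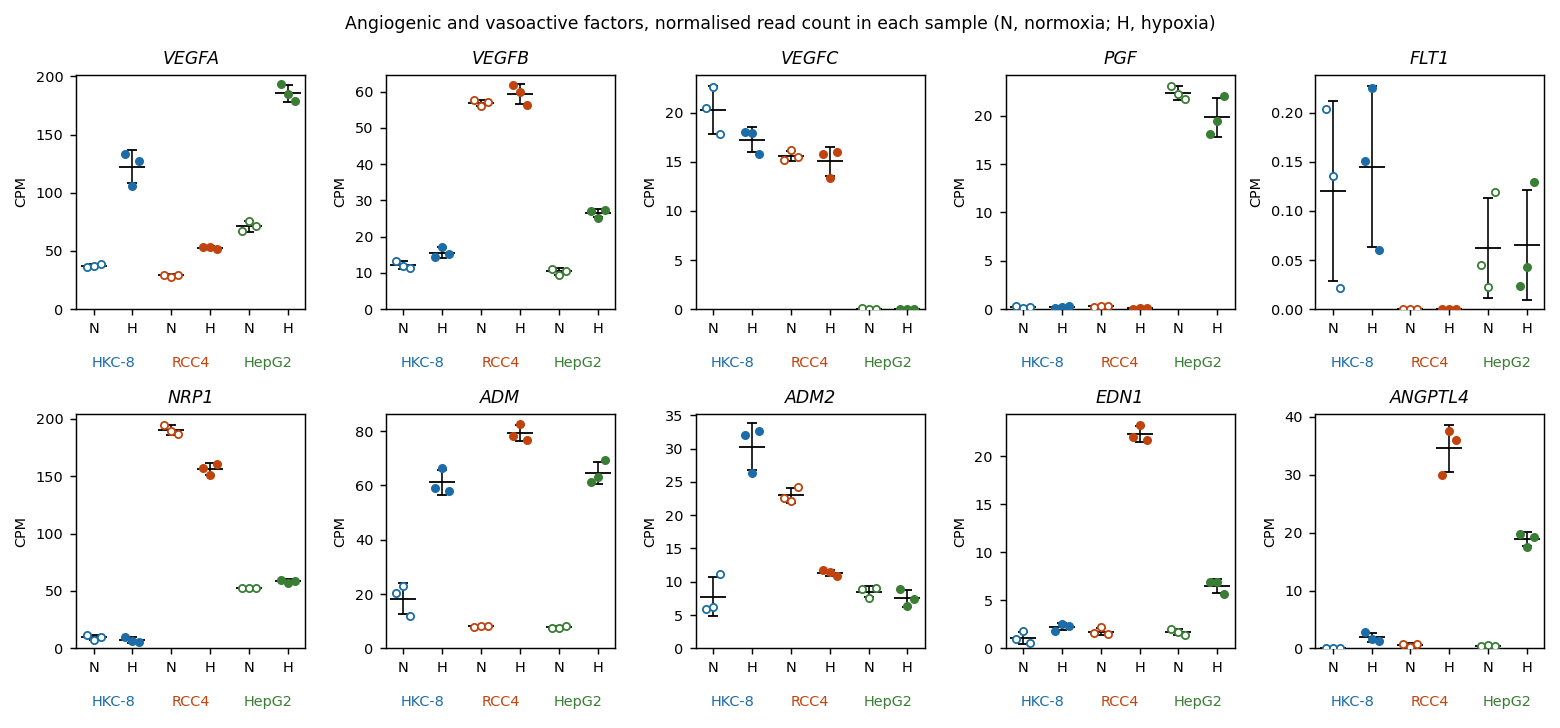
Normalised read count (CPM, linear axis from 0) of each factor in each of the 18 samples, with open points for normoxia, filled points for hypoxia, and bars at the mean ± SD of 3 samples. VEGFA, ADM and ANGPTL4 were higher in hypoxia in each line with no overlap, while ADM2 was higher in HKC-8 (26.3 to 32.6 CPM against 5.97 to 11.2) and lower in RCC4 cells (10.9 to 11.7 against 22.1 to 24.2).

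**Figure D2:**
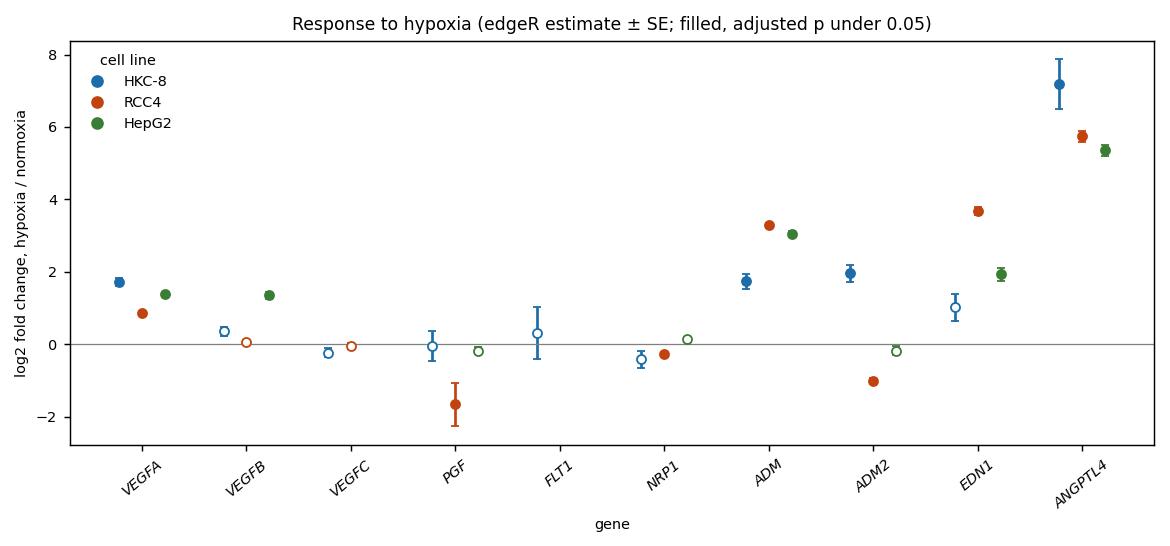
Log2 fold change (hypoxia over normoxia) of each factor in each cell line, with bars at ± SE from edgeR and filled points for an adjusted p under 0.05. ANGPTL4 had the highest value in each line (7.18, 5.74 and 5.35 in HKC-8, RCC4 and HepG2 cells), and ADM2 differed in sign between HKC-8 (1.96) and RCC4 cells (-1.01).

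VEGFA (GRCh37, chromosome 6, 43737921 to 43754224, plus strand) rose in each line. HKC-8 samples held 36.0, 37.3 and 38.6 CPM in normoxia and 133, 106 and 127 CPM in hypoxia. Normoxic RCC4 samples held 29.6, 28.0 and 29.6 CPM and hypoxic ones 53.8, 53.3 and 51.3 CPM. HepG2 cells gave 66.7, 75.8 and 71.2 CPM in normoxia and 193, 185 and 179 CPM in hypoxia. Hypoxic samples lay above all normoxic samples of their own line, but the hypoxic RCC4 samples lay below every normoxic HepG2 sample. The log2 fold change was 1.72 (SE 0.10, adjusted p = 1.06e-05) in HKC-8, 0.87 (SE 0.05, adjusted p = 9.96e-13) in RCC4 and 1.38 (SE 0.07, adjusted p = 2.99e-09) in HepG2 cells. By size it ranked 240 of 13536 genes in HKC-8, 380 of 12811 in RCC4 and 342 of 13623 in HepG2 cells. The counts are summed over transcripts of the gene, so the splice forms of VEGFA, which differ in how they bind matrix and neuropilin, are not separated. VEGFA shares 188 exonic bases with a gene on the opposite strand that is not in the count table, and the sources used here do not state whether counting used strand.

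VEGFB, at chromosome 11, 64002056 to 64006736, passed the test in HepG2 cells. Normoxic HepG2 samples stood at 11.1, 9.45 and 10.6 CPM and hypoxic samples at 27.0, 25.1 and 27.3 CPM, without overlap (log2 fold change 1.35, SE 0.09, adjusted p = 5.93e-08). HKC-8 levels were 13.4, 11.9 and 11.3 CPM in normoxia and 14.3, 17.2 and 15.3 CPM in hypoxia. The HKC-8 groups did not overlap, but the log2 fold change of 0.36 (SE 0.12) had an adjusted p of 0.0619 in edgeR. With the replicate block the same value of 0.36 had an adjusted p of 0.0167 in edgeR, and DESeq2 gave 0.0239. RCC4 cells held the most VEGFB, with 57.7, 55.9 and 57.2 CPM in normoxia and 61.8, 59.8 and 56.2 CPM in hypoxia, groups that overlapped (log2 fold change 0.06, SE 0.05, adjusted p = 0.258 in edgeR).

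VEGFC, at chromosome 4, 177604689 to 177714076 on the minus strand, was a transcript of the kidney lines. In HKC-8 cells it stood at 20.5, 22.6 and 17.8 CPM in normoxia and 18.1, 17.9 and 15.8 CPM in hypoxia, overlapping values with a log2 fold change of -0.23 (SE 0.12, edgeR adjusted p = 0.196). With the replicate block the value was -0.23 at an adjusted p of 0.0406 in edgeR. RCC4 levels were 15.2, 16.2 and 15.4 CPM in normoxia and 15.8, 13.3 and 16.0 CPM in hypoxia, with a log2 fold change of -0.05 (SE 0.08, edgeR adjusted p = 0.655). HepG2 samples held 4, 2 and 0 counts of VEGFC in normoxia and 0, 2 and 0 in hypoxia, at or near the limit of 3 counts.

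PGF, at chromosome 14, 75408537 to 75422329 on the minus strand, had the opposite distribution and was abundant in HepG2 cells alone. Those cells held 23.1, 22.2 and 21.7 CPM in normoxia and 18.1, 19.4 and 22.0 CPM in hypoxia, groups that overlapped (log2 fold change -0.17, SE 0.09, edgeR adjusted p = 0.128). HKC-8 samples had 24, 12 and 24 counts in normoxia and 12, 23 and 24 in hypoxia (log2 fold change -0.04, SE 0.42, edgeR adjusted p = 0.952). In RCC4 cells 11, 14 and 16 counts in normoxia stood against 3, 4 and 6 in hypoxia. The RCC4 groups did not overlap, and PGF fell by 1.66 on the log2 scale (SE 0.60, edgeR adjusted p = 0.0253). This call rested on few counts, as the adjusted p was 0.0625 without the low-count filter and 0.0550 to 0.0860 when normoxia replicate 2 or 3 or hypoxia replicate 1 or 2 was left out.

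Expressed per length, the VEGF ligands made up a different mixture in each line. Each CPM was divided by the length in kb of all annotated exons of the gene, or of its canonical transcript alone, and ligands were taken as shares of the summed level of VEGFA, VEGFB, VEGFC and PGF. On the exon union, VEGFA made up 15.7% ± 1.63 (SD, n = 3) in normoxic and 36.8% ± 4.14 in hypoxic HKC-8 cells. The share was 5.46% ± 0.125 and 9.26% ± 0.186 in RCC4 cells, and 35.1% ± 2.72 and 43.3% ± 1.76 in HepG2 cells. In no line did the normoxic and hypoxic shares overlap, and the hypoxic share was the higher one. The exon union of VEGFA spans 14431 bases and its canonical transcript 3609. With canonical lengths the share of VEGFA in normoxia and then hypoxia was 39.5% and 67.2% for HKC-8, 17.3% and 27.0% for RCC4, and 51.4% and 66.3% for HepG2 cells. The level of VEGFA therefore depends on the length chosen, while the order of normoxia and hypoxia within a line was the same with both. On both lengths VEGFB was the most abundant of these ligands in RCC4 cells, at 28.9 ± 0.459 per kb in normoxia and 30.1 ± 1.43 per kb in hypoxia on the exon union.

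**Figure D3:**
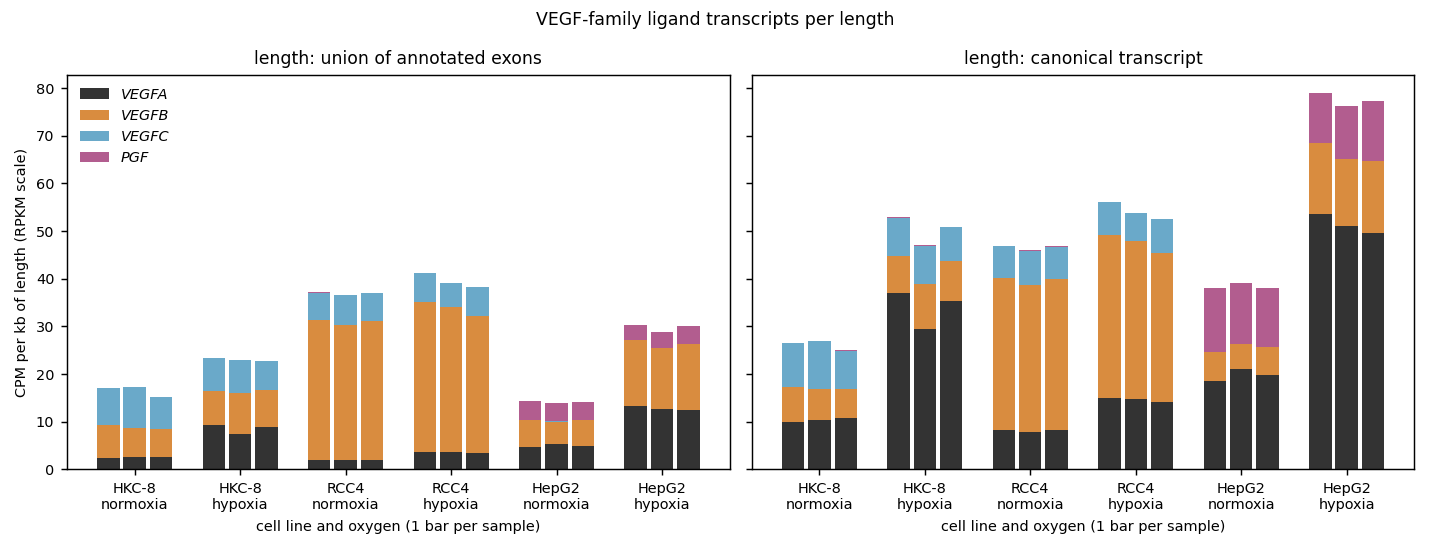
Stacked level of the 4 VEGF-family ligands in each sample (CPM per kb, axes from 0), with length taken as the union of annotated exons on the left and as the canonical transcript on the right. VEGFB fills most of each RCC4 bar on both lengths, PGF is visible only in HepG2 and VEGFC only in the kidney lines, and the dark VEGFA segment is taller in hypoxia in each line.

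Of the receptors among the factors, FLT1 (chromosome 13, 28874483 to 29069282, minus strand) was at or near the detection limit. HKC-8 samples had 17, 11 and 2 counts in normoxia and 12, 22 and 5 in hypoxia, with a log2 fold change of 0.31 (SE 0.71, edgeR adjusted p = 0.791). HepG2 samples had 2, 1 and 5 counts in normoxia and 1, 2 and 5 in hypoxia. No count was found in the 6 RCC4 samples, which allows a level of up to 0.0103 CPM over the 6 samples together. A response of FLT1 was not detectable at this depth, and its soluble and membrane forms are not separated in gene counts.

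NRP1, at chromosome 10, 33466420 to 33625190 on the minus strand, was by contrast abundant in RCC4 cells. Normoxic RCC4 samples held 195, 189 and 186 CPM and hypoxic ones 157, 151 and 161 CPM. The groups did not overlap and NRP1 fell by 0.28 on the log2 scale (SE 0.04, edgeR adjusted p = 8.75e-07), although with 1 fit of all 18 samples the adjusted p was 0.161. HepG2 levels were 52.5, 52.6 and 53.0 CPM in normoxia and 60.0, 56.7 and 59.1 CPM in hypoxia. These did not overlap either, but the log2 fold change of 0.15 (SE 0.06) had an edgeR adjusted p of 0.0564, which was 0.0487 when at least 10 counts were asked of every sample. HKC-8 samples held 12, 7.40 and 9.86 CPM in normoxia and 9.88, 6.19 and 5.80 CPM in hypoxia, where replicate 1 was the highest of both groups and the groups overlapped. The log2 fold change was -0.42 (SE 0.24, edgeR adjusted p = 0.237), and with the replicate block it was -0.43 at an adjusted p of 0.0155. NRP1 shares 561 exonic bases with an opposite-strand gene that is not in the count table.

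The promoters of ADM, ADM2, EDN1 and ANGPTL4 are shown here because these factors had the 4 largest log2 fold changes in any line, and the motif marked is the core sequence bound by HIF. Each run is the 250 bases before an annotated RefSeq start (GRCh38.p14, read 5′ to 3′ in the direction of the gene), with ACGTG or GCGTG, on either strand, in capitals. A motif on the reverse strand reads CACGT or CACGC. EDN1 has 3 annotated starts, with 3, 0 and 1 such motifs, and the third is printed.
ADM, chr11:10304823-10305072, plus strand: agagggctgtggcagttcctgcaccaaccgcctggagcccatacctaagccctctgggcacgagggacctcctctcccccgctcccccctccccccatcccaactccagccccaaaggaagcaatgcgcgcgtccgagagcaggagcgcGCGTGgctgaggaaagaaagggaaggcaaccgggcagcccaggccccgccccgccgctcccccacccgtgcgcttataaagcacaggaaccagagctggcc
ADM2, chr22:50481293-50481542, plus strand: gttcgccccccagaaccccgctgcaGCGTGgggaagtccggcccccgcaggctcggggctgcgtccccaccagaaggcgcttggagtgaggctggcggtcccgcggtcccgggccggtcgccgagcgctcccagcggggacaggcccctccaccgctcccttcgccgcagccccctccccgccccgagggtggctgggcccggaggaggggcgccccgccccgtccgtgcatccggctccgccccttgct
EDN1, chr6:12290111-12290360, plus strand: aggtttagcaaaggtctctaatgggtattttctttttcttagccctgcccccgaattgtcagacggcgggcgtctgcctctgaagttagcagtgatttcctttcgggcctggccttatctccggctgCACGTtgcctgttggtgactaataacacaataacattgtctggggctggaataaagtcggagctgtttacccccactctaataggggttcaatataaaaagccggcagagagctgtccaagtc
ANGPTL4, chr19:8363905-8364154, plus strand: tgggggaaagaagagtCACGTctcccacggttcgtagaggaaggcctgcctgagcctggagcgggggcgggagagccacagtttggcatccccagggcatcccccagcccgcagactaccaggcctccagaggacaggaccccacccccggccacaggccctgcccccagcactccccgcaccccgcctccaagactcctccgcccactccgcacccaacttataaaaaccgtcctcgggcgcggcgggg
The motif lay 101 to 97 bases before the start in ADM, 225 to 221 in ADM2, 123 to 119 in this EDN1 promoter and 234 to 230 in ANGPTL4. Such a motif was present in 43.2% of all 35116 promoters of the table and in 50.6% of the 14345 first promoters of genes in the count table, so its presence here is a description of the letters and not of binding. It was also present in the promoters of VEGFB, VEGFC and FLT1, and in promoter 2 but not promoter 1 of PGF. Of these, VEGFC and FLT1 passed in no line where they were tested without the replicate block. The source held no promoter of VEGFA or NRP1. ADM and ADM2 each hold GCGTG on their own strand.

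ADM, at chromosome 11, 10326620 to 10328944 in GRCh37, rose in all 3 lines, least in HKC-8 cells, where its normoxic level was highest. Normoxic HKC-8 samples held 20.2, 22.8 and 11.8 CPM and hypoxic ones 59.2, 66.3 and 57.8 CPM. RCC4 samples went from 7.96, 8.18 and 8.33 CPM in normoxia to 78.2, 82.6 and 76.9 CPM in hypoxia, and HepG2 samples from 7.43, 7.68 and 8.28 to 61.4, 63.0 and 69.3 CPM. No group overlapped its control, and among normoxic samples HKC-8 replicate 3 stood apart as the lowest of its line, still above every RCC4 and HepG2 sample. The log2 fold change was 1.74 (SE 0.21, edgeR adjusted p = 0.000942) in HKC-8, 3.29 (SE 0.06, adjusted p = 9.81e-23) in RCC4 and 3.05 (SE 0.08, adjusted p = 6.94e-12) in HepG2 cells. As a fold, ADM was 9.75 times higher in hypoxic RCC4 cells, the 17th rank of 12811 genes.

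ADM2, at chromosome 22, 50919972 to 50924869 in GRCh37, rose in HKC-8 cells, fell in RCC4 cells and did not pass in HepG2 cells. HKC-8 samples held 5.97, 6.21 and 11.2 CPM in normoxia and 32.0, 26.3 and 32.6 CPM in hypoxia. The normoxic replicate 3 was the highest of its group, where ADM was lowest, and the groups were still far apart (log2 fold change 1.96, SE 0.23, edgeR adjusted p = 0.000925). Without that sample the value was 2.31 for ADM2 and 1.51 for ADM, at adjusted p of 1.58e-05 and 5.07e-05 in edgeR. RCC4 samples held 22.6, 22.1 and 24.2 CPM in normoxia and 11.7, 11.5 and 10.9 CPM in hypoxia, groups without overlap in which ADM2 fell by 1.01 on the log2 scale (SE 0.07, edgeR adjusted p = 2.33e-11). This was rank 144 from the lowest of 12811 genes. HepG2 samples held 8.88, 7.61 and 9.07 CPM in normoxia and 8.86, 6.30 and 7.45 CPM in hypoxia, which overlapped (log2 fold change -0.18, SE 0.13, edgeR adjusted p = 0.310). ADM2 shares 131 exonic bases with SBF1 on the opposite strand, so reads there could not be assigned to a strand if counting ignored it.

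As a share of the summed level of the 2 peptides per kb of exon union, ADM made up 79.8% ± 11.9 in normoxic and 78.7% ± 3.10 in hypoxic HKC-8 cells. Single HKC-8 samples had 86.2%, 87.1% and 66.1% in normoxia and 77.3%, 82.3% and 76.6% in hypoxia, so that the overlap rested on normoxia replicate 3, without which the normoxic mean was 86.7% and both samples lay above all hypoxic ones. In RCC4 cells the share went from 39.6% ± 0.881 to 92.8% ± 0.277, and in HepG2 cells from 62.8% ± 2.18 to 94.0% ± 1.13. In the latter lines the hypoxic share of ADM was the higher one and the groups did not overlap. With canonical transcript lengths the shares were 85.5% and 85.0% in HKC-8, 50.1% and 95.2% in RCC4, and 72.1% and 96.0% in HepG2 cells.

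EDN1, at chromosome 6, 12290594 to 12297427 in GRCh37, was low in normoxia in each line and rose most in RCC4 cells. Normoxic RCC4 samples held 1.56, 2.19 and 1.50 CPM and hypoxic ones 22.1, 23.3 and 21.7 CPM (log2 fold change 3.67, SE 0.11, edgeR adjusted p = 4.44e-18), rank 15 of 12811 genes. HepG2 samples held 2.04, 1.75 and 1.36 CPM in normoxia and 6.95, 6.93 and 5.72 CPM in hypoxia (log2 fold change 1.93, SE 0.17, edgeR adjusted p = 1.33e-06). Neither pair of groups overlapped. HKC-8 samples held 0.971, 1.81 and 0.572 CPM in normoxia and 1.84, 2.57 and 2.35 CPM in hypoxia, where normoxic replicate 2 came close to hypoxic replicate 1. The log2 fold change of 1.02 (SE 0.37) had an edgeR adjusted p of 0.0813. With the replicate block it was 1.11 at 0.00794, without normoxia replicate 2 it was 1.55 at 0.0144 in edgeR, and DESeq2 gave an adjusted p of 0.0277.

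ANGPTL4, at chromosome 19, 8428173 to 8439254 in GRCh37, had the highest log2 fold change of the factors in each line. HKC-8 samples held 3, 0 and 0 counts in normoxia and 223, 163 and 106 counts in hypoxia, the latter being 2.80, 1.67 and 1.28 CPM. RCC4 samples went from 0.810, 0.318 and 0.842 CPM to 30.0, 37.6 and 36.1 CPM, and HepG2 samples from 0.385, 0.537 and 0.454 CPM to 19.8, 17.5 and 19.3 CPM. No hypoxic sample came near a normoxic one of its own line, and the hypoxic level in HKC-8 cells was the lowest of the lines. The log2 fold change was 5.74 (SE 0.15, edgeR adjusted p = 3.26e-19) in RCC4 cells and 5.35 (SE 0.15, edgeR adjusted p = 8.70e-12) in HepG2 cells, ranks 5 of 12811 and 9 of 13623 genes. In HKC-8 cells the gene ranked 3 of 13536 with an edgeR adjusted p of 0.000276, and its fitted value of 7.18 (SE 0.69) rests on 3 normoxic counts in 1 sample. The ratio of 492 summed hypoxic to 3 summed normoxic counts, scaled for depth, was 161 with a 95% counting interval of 54.8 to 784. When normoxia replicate 1, the sample with those 3 counts, was left out, the fitted value was 10.37, which depends on the prior count, and leaving out any other sample gave 6.60 to 7.40.

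HKC-8 and HepG2 cells share their labelled exposure, and whether their responses differed was tested as an interaction over 12 samples. Of 9 factors tested, 3 passed, against 9.3% of 15046 genes, of which 4.28% were higher and 5.02% lower in HKC-8 cells. The response of ADM was smaller in HKC-8 than in HepG2 cells by -1.31 on the log2 scale (SE 0.24, edgeR adjusted p = 0.00287), with normoxic means of 18.3 ± 5.74 against 7.80 ± 0.437 CPM and hypoxic means of 61.1 ± 4.58 against 64.6 ± 4.19 CPM. For ADM2 the response was larger in HKC-8 cells by 2.14 (SE 0.29, edgeR adjusted p = 0.000307), and for VEGFB it was smaller by -0.99 (SE 0.15, edgeR adjusted p = 0.000668). The 2 adrenomedullin transcripts thus differed between these lines in opposite directions. VEGFA had a difference of 0.33 (SE 0.12, edgeR adjusted p = 0.0975), EDN1 -0.91 (SE 0.43, adjusted p = 0.214), NRP1 -0.58 (SE 0.25, adjusted p = 0.169) and ANGPTL4 1.77 (SE 0.87, adjusted p = 0.232). With the replicate number of each line as a block, VEGFA (0.33, edgeR adjusted p = 0.0400) and NRP1 (-0.58, edgeR adjusted p = 0.00510) also passed, which made 5 of 9, against 20.1% of all genes in that fit. PGF differed by 0.12 (SE 0.32, edgeR adjusted p = 0.878), VEGFC was at the floor in HepG2 cells, and FLT1 could not be tested.

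Normoxic levels were compared between lines in 1 fit of the 9 normoxic samples. The tested factors that differed were 7 of 9 between HKC-8 and RCC4 cells, 7 of 9 between HKC-8 and HepG2 cells and 6 of 9 between RCC4 and HepG2 cells, where 80.8%, 83% and 83.3% of all 14806 genes did. HKC-8 cells were higher in 3 and lower in 4 factors against RCC4 cells (41.4% and 39.4% of all genes), and likewise 3 and 4 against HepG2 cells (40.5% and 42.6%). RCC4 cells were higher than HepG2 cells in 4 factors and lower in 2 (38.1% and 45.3%). In the comparisons with HKC-8 cells these shares of factors were near those of all genes. Between RCC4 and HepG2 cells the 2 of 9 lower factors stood under the 45.3% of all genes, but 9 genes are too few to set against that share. Cell line, depth and library preparation cannot be told apart. VEGFA was highest in HepG2 cells, with log2 differences of -0.95 for HKC-8 minus HepG2 and -1.30 for RCC4 minus HepG2, and HKC-8 exceeded RCC4 by 0.35 (SE 0.07, edgeR adjusted p = 0.000548). VEGFB was highest in RCC4 cells, with log2 differences of -2.24 for HKC-8 minus RCC4 and 2.44 for RCC4 minus HepG2. HKC-8 and HepG2 cells, neighbours in VEGFB, differed by 0.21 (SE 0.09, edgeR adjusted p = 0.0495), a call lost with DESeq2 (adjusted p = 0.0608), with median-of-ratios size factors (0.0683), with at least 10 counts in every sample (0.0825) and on leaving out HKC-8 replicate 1, HepG2 replicate 2 or any RCC4 sample.

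NRP1 followed the order RCC4, HepG2 and HKC-8, and each step passed, with RCC4 minus HepG2 at 1.84 (SE 0.12) and HKC-8 minus HepG2 at -2.45 (SE 0.13). ADM was highest in HKC-8 cells, by 1.15 over RCC4 and 1.21 over HepG2 cells, and the last 2 lines did not differ beyond their spread (0.06, SE 0.19, edgeR adjusted p = 0.795). ADM2 was highest in RCC4 cells, with a log2 difference of -1.57 for HKC-8 minus RCC4, while HKC-8 and HepG2 cells differed by -0.15 (SE 0.20, edgeR adjusted p = 0.507). Without normoxic HKC-8 replicate 3 that last value was -0.45 with an adjusted p of 0.00137 in edgeR. EDN1 passed in no pair, with values of -0.67, -0.65 and 0.02 and edgeR adjusted p of 0.0941, 0.104 and 0.962, although without HKC-8 replicate 2 HKC-8 cells were lower by -1.19 against RCC4 and -1.12 against HepG2 cells (edgeR adjusted p = 0.00307 and 0.00457), and both also passed in 1 fit of all 18 samples (0.0395 and 0.0493). VEGFC was 0.37 higher in HKC-8 than in RCC4 cells (SE 0.14, edgeR adjusted p = 0.0230), a call lost when any of HKC-8 replicate 1 or 2 or RCC4 replicate 1 or 3 was left out. PGF did not differ between the kidney lines beyond its spread (-0.30, SE 0.30, edgeR adjusted p = 0.380), and HKC-8 cells lay at -6.58 against HepG2 cells. ANGPTL4 was at the floor in HKC-8 cells, and RCC4 and HepG2 cells differed by 0.50 (SE 0.46, edgeR adjusted p = 0.323).

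Ranked per kb of exon union, ADM was the most abundant factor in the hypoxic samples of each line, at 26.3 ± 1.97 (HKC-8), 34.1 ± 1.29 (RCC4) and 27.8 ± 1.80 (HepG2). In normoxia the highest was ADM in HKC-8 (7.87 ± 2.47, with VEGFC at 7.76 ± 0.930, which it did not exceed beyond its spread) and VEGFB in RCC4 cells (28.9 ± 0.459). In normoxic HepG2 cells VEGFB (5.28 ± 0.440) and VEGFA (4.94 ± 0.314) were within their spread of each other. With canonical lengths VEGFA was first there, at 19.7 ± 1.26 per kb, and VEGFB came after PGF and NRP1 at 5.77 ± 0.480. On that scale VEGFA also came above ADM in hypoxic HepG2 cells, at 51.4 ± 2.01 against 43.3 ± 2.81 per kb, and NRP1 came above VEGFB in normoxic RCC4 cells.

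Receptors for these ligands were detected unevenly. KDR, the main signalling receptor for VEGFA, had no count except in hypoxic HepG2 samples, where it reached 2. FLT4, the receptor for VEGFC, had 302 to 377 counts in normoxic and 360 to 567 in hypoxic HKC-8 samples (log2 fold change 0.35, SE 0.16, edgeR adjusted p = 0.145), 0 or 1 in RCC4 and 3 to 15 in HepG2 samples. CALCRL, which forms the adrenomedullin receptor, had 1283 to 1454 counts in normoxic and 1378 to 1476 in hypoxic RCC4 samples, and at most 1 count in HKC-8 and 6 in HepG2 samples. RAMP2, the partner that makes CALCRL an adrenomedullin receptor, showed the reverse, with 229 to 282 and 168 to 246 counts in HKC-8 samples, 62 to 84 and 79 to 89 in HepG2 samples, and none in any RCC4 sample. RAMP1 reached 5 counts in HKC-8 and 27 in HepG2 samples, and RAMP3 had no count in any sample. No sample thus held more than 6 counts of both CALCRL and a RAMP transcript. For EDN1, the receptor EDNRA had 12 to 24 and 30 to 34 counts in HKC-8 samples (log2 fold change 0.73, SE 0.39, edgeR adjusted p = 0.216), 8 to 15 and 1 to 5 in RCC4 samples and none in HepG2 samples, and EDNRB had none save up to 4 in hypoxic RCC4 samples.

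**Figure D4:**
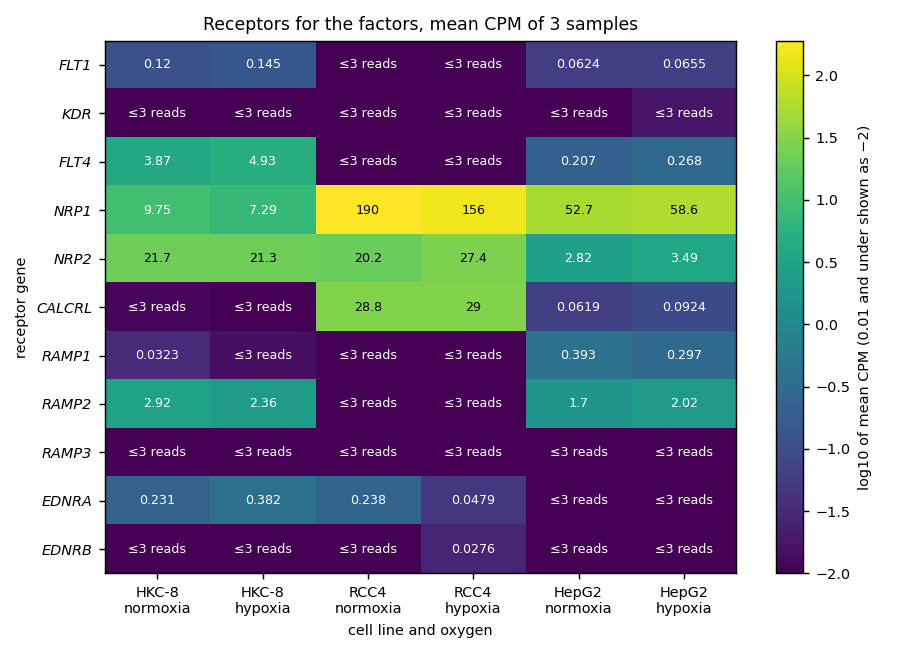
Mean CPM of 3 samples for 11 receptor genes (rows) in each cell line and condition (columns), coloured on a log10 scale, with "≤3 reads" where no sample of the group had more than 3 counts. NRP1 is brightest in RCC4 cells, CALCRL is bright in RCC4 cells alone and RAMP2 in the other lines.

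Other genes of the same pathways were taken from 7 lists, which were set up with earlier results of these data known, so that their counts are descriptions. They are to be read against all genes tested, of which 11.2% were higher and 9.12% lower in HKC-8 cells, 25.9% and 24.2% in RCC4 cells, and 19.9% and 19.2% in HepG2 cells. Named here are genes with an adjusted p under 0.05, a change of at least 2-fold and groups without overlap in at least 1 line. Of the VEGF receptor and neuropilin partner list, 3 of 8 tested genes were lower and none higher in HKC-8 cells, 3 were higher and 2 lower of 7 in RCC4 cells, and 1 was higher and 2 lower of 8 in HepG2 cells. The median log2 fold change of this list was -0.18, -0.15 and 0.16 in the same order of lines. SEMA3A, a repulsive ligand of NRP1, stood at 5.49 ± 1.22 CPM in normoxic and 1.87 ± 0.432 CPM in hypoxic HKC-8 cells (log2 fold change -1.55, SE 0.24, edgeR adjusted p = 0.00311), and had values of -0.15 and -0.06 in RCC4 and HepG2 cells that did not pass. SEMA3C fell by 1.03 in HKC-8 (SE 0.26, edgeR adjusted p = 0.0238) and rose by 0.61 in RCC4 cells (SE 0.04, edgeR adjusted p = 2.71e-12). The HKC-8 call for SEMA3C was lost without any of normoxia replicate 1 or 2 or hypoxia replicate 1 or 3, at adjusted p of 0.0642 to 0.0931 in edgeR.

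In the adrenomedullin receptor and calcitonin peptide list, 2 of 3 tested genes were higher in HKC-8 cells and 1 of 3 in each other line, with none lower, numbers too small to set against the shares of 11.2%, 25.9% and 19.9% over all genes. PAM, the enzyme that amidates the C terminus of adrenomedullin, rose in all 3 lines, from 93.6 ± 4.08 to 196 ± 16.0 CPM in HKC-8, from 242 ± 6.81 to 443 ± 27.0 CPM in RCC4 and from 49.7 ± 3.44 to 168 ± 5.49 CPM in HepG2 cells. Its log2 fold change was 1.07 (SE 0.08), 0.88 (SE 0.04) and 1.76 (SE 0.06). CXCR7, a scavenging receptor that also binds adrenomedullin, had 1 to 7 counts in normoxic and 29 to 46 in hypoxic HKC-8 samples (log2 fold change 2.98, SE 0.58, edgeR adjusted p = 0.00901), and did not pass in RCC4 cells (0.28, adjusted p = 0.453).

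Of the endothelin system, 4 of 5 tested genes were higher in HKC-8, 3 of 4 in RCC4 and 1 of 2 in HepG2 cells, with none lower, against 11.2%, 25.9% and 19.9% of all genes higher. EDN2, a second endothelin, rose by 1.02 in HKC-8 (SE 0.20, edgeR adjusted p = 0.00857) and by 1.56 in RCC4 cells (SE 0.08, edgeR adjusted p = 3.79e-13), where its hypoxic mean was 19.9 ± 1.88 CPM, and had 0 to 4 counts in HepG2 samples. MME, neprilysin, which degrades endothelins, rose by 1.29 in RCC4 cells (SE 0.16, edgeR adjusted p = 7.67e-07), from 1.59 ± 0.163 to 3.86 ± 0.159 CPM. In HKC-8 cells MME had 9 to 30 normoxic and 36 to 68 hypoxic counts (1.53, SE 0.44, edgeR adjusted p = 0.0387), and that call was lost on leaving out any sample other than normoxia replicate 3. ECE1, the endothelin converting enzyme, was higher in all 3 lines by less than 2-fold, with values of 0.71, 0.30 and 0.17.

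The angiopoietin-like and lipase list had 3 of 6 tested genes higher in HKC-8 cells, 1 of 2 in RCC4 cells, and 3 higher and 4 lower of 7 in HepG2 cells, against 11.2%, 25.9%, and 19.9% and 19.2% of all genes. In HepG2 cells ANGPTL2 rose from 3.20 ± 0.471 to 13.7 ± 1.23 CPM (log2 fold change 2.09, SE 0.13, edgeR adjusted p = 3.69e-08), against a value of -0.28 (adjusted p = 0.221) in HKC-8 cells, and C19orf80, which encodes ANGPTL8, from 13.6 ± 1.30 to 51.3 ± 7.03 CPM (1.91, SE 0.11, edgeR adjusted p = 1.16e-08). LIPG, endothelial lipase, rose in HKC-8 cells by 2.29 (SE 0.26, edgeR adjusted p = 0.000718) and fell in HepG2 cells by 0.63 (SE 0.21, edgeR adjusted p = 0.0307). The HepG2 call for LIPG was lost in 4 of 6 runs that left out 1 sample, with normoxia replicate 1 or 2 or hypoxia replicate 2 or 3 absent. LPL itself had no count in RCC4 or HepG2 samples.

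Of the other angiogenic ligands, 1 was higher and 1 lower of 10 tested in HKC-8 cells, 5 of 10 were higher in RCC4 and 5 of 9 in HepG2 cells. The HKC-8 counts were near the shares of all genes (11.2% and 9.12%), and 25.9% and 19.9% of all genes were higher in RCC4 and HepG2 cells. APLN, the ligand of the apelin receptor, rose in all 3 lines, from 188 to 324 counts to 1912 to 2819 in HKC-8, from 11 to 20 to 214 to 245 in RCC4 and from 0 to 2 to 57 to 77 in HepG2 samples. Its log2 fold change was 3.07 (SE 0.22, edgeR adjusted p = 4.40e-05) in HKC-8 and 3.99 (SE 0.22, edgeR adjusted p = 6.92e-13) in RCC4 cells, and in HepG2 cells, at the floor in normoxia, the edgeR adjusted p was 1.19e-06. PDGFB, a growth factor for pericytes, rose in HepG2 cells from 3.60 ± 0.283 to 19.9 ± 1.61 CPM (2.46, SE 0.11, edgeR adjusted p = 1.14e-09). It had a value of 1.18 (SE 0.39, edgeR adjusted p = 0.0626) in HKC-8 cells, where the replicate block gave 1.19 at 0.00605, and of -0.13 (adjusted p = 0.406) in RCC4 cells.

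Of the angiogenesis inhibitors, 2 were higher and none lower of 8 tested in HKC-8 and in HepG2 cells, and 2 higher and 1 lower of 6 in RCC4 cells. These numbers were too small to set against the shares of all genes. VASH1, vasohibin 1, rose by 1.25 in HKC-8 (SE 0.14, edgeR adjusted p = 0.000710) and 1.10 in RCC4 cells (SE 0.16, edgeR adjusted p = 5.99e-06), and had a value of 0.26 (adjusted p = 0.210) in HepG2 cells. THBS2, thrombospondin 2, rose in HKC-8 cells from 198 ± 51.3 to 413 ± 75.6 CPM (1.06, SE 0.20, edgeR adjusted p = 0.00743). Among the other vasoactive genes 3 were higher and 1 lower of 9 in HKC-8, 2 higher and 3 lower of 7 in RCC4, and 3 higher and 2 lower of 10 in HepG2 cells. Numbers were again too small to set against the shares of all genes. NPPB, brain natriuretic peptide, rose in all 3 lines by 1.52 (SE 0.22), 1.96 (SE 0.18) and 2.18 (SE 0.48), and was far the most abundant in HKC-8 cells, with 90.9 ± 27.7 CPM in normoxia and 261 ± 43.8 CPM in hypoxia. Its HepG2 value (edgeR adjusted p = 0.00276) rests on low normoxic levels of 0.0227 to 0.286 CPM. With 1 sample left out that value ranged from 1.66 to 2.68. PTGS1, cyclooxygenase 1, rose by 1.92 in HKC-8 (SE 0.18, edgeR adjusted p = 0.000231) and 1.11 in RCC4 cells (SE 0.17, edgeR adjusted p = 7.50e-06). In HepG2 cells AGTR1, the angiotensin II receptor, rose by 1.59 (SE 0.38, edgeR adjusted p = 0.00467), from 13 to 28 counts to 28 to 70 counts, without overlap once scaled for depth. NOS3, the endothelial nitric oxide synthase, fell there from 52.7 ± 13.5 to 23.6 ± 3.62 CPM (-1.16, SE 0.15, edgeR adjusted p = 5.70e-05).

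**Figure D5:**
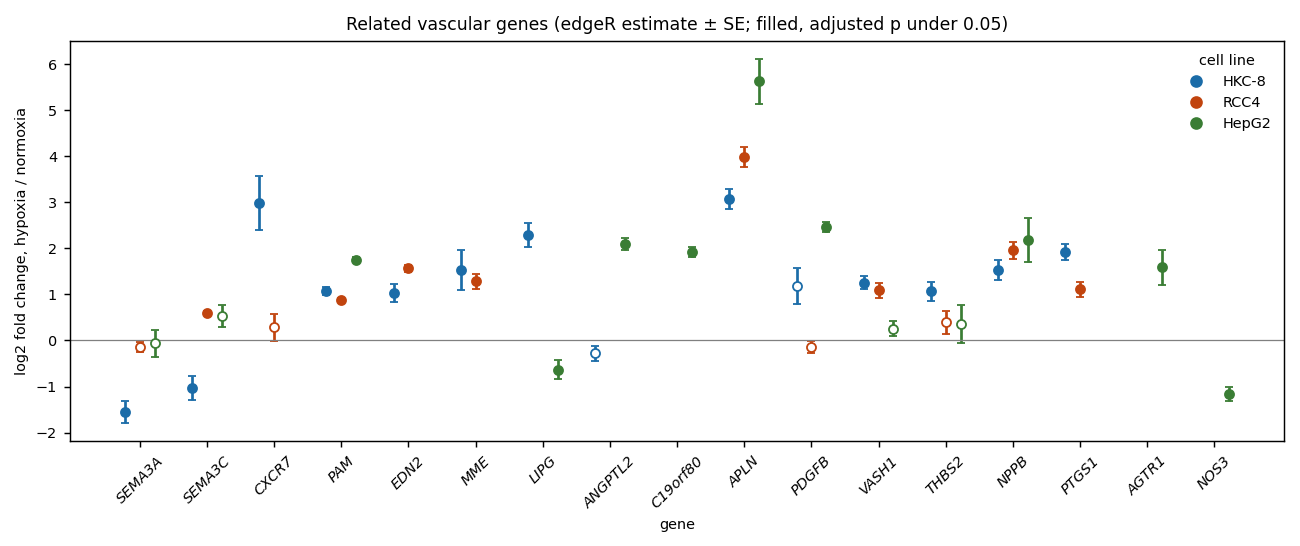
Log2 fold change (hypoxia over normoxia) of the genes named above from the related lists, with bars at ± SE from edgeR, filled points for an adjusted p under 0.05, and no point where the gene was not tested. APLN, PAM and NPPB are above 0 and filled in each line, and SEMA3C, LIPG, ANGPTL2 and PDGFB have estimates of opposite sign in different lines.

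Over the 18 samples, the genes whose log2 CPM followed VEGFA most closely by Pearson's r among 15307 genes were CDK18 (0.97), ATP8B3 (0.97) and FAM162A (0.97). For ADM these were PDK1 (0.96), AGPAT5 (0.95) and MIR210HG (0.94), and for ANGPTL4 they were TMEM45A (0.96), KIAA1244 (0.95) and ACAP1 (0.94). The points share cell line, depth and library, so these values describe the samples and no more. Among the factors the highest r was 0.89, between EDN1 and ANGPTL4, and that between ADM and ADM2 was 0.02. The lowest, -0.98 between VEGFC and PGF, set the kidney lines against HepG2 cells.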

How the data were processed

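PolyA+ RNA of the 18 samples was made into libraries with the ScriptSeq kit and sequenced on HiSeq instruments. The authors trimmed reads with Trim Galore 0.3.3, aligned them to GRCh37 with TopHat 2.0.8b and Bowtie 1.0.0, removed fragments without a unique position with SAMtools 0.1.19, and counted fragments over UCSC genes with HTSeq 0.5.4p3 in intersection-strict mode. The deposited values are raw counts per gene, used here as deposited. Whether counting used strand is not given in the sources used here.

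Each cell line was fitted by edgeR 4.0.16 (R 4.3.3) with filterByExpr, TMM scaling and the quasi-likelihood test, Benjamini-Hochberg adjustment over all genes tested and a threshold of 0.05. The SE was taken as the absolute log2 fold change over the square root of F. The difference between HKC-8 and HepG2 responses was an interaction term, and normoxic levels were compared over 9 samples. Plots and summaries used Python 3.11.15. The fits were tested on simulated data. Alternatives were DESeq2 1.42.0, its size factors within edgeR, dropping the filter on low counts, asking 10 counts or more of each sample, fitting the 18 samples together, a replicate block, and leaving out each sample. Canonical transcript length, and the share of ADM without HKC-8 normoxia replicate 3, were added after seeing the data. GENCODE gene models for GRCh37 gave coordinates and lengths, and promoters came from RefSeq (GRCh38.p14), which was matched by symbol and held 8 of the 10 factors.

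Total counts were 40915980 to 97984260 per sample. Limits at 3 counts and 95% intervals of count ratios cover counting error only. The labels do not say that replicates came from separate cultures, so p-values measure the spread between these samples. No pair of replicates agreed within sampling noise. Same-numbered HKC-8 samples had r of 0.109, 0.453 and 0.447 for replicates 1, 2 and 3, and differently numbered ones -0.469 to 0.116. The highest of the latter, normoxia replicate 1 with hypoxia replicate 2, exceeded the r of replicate 1. Pairing was thus clear for replicates 2 and 3 only. The replicate block takes the numbers as pairs, which rests on the values and not on the labels. The factors and gene lists were chosen with earlier results of these data known. All 10 factors and 8 receptors are named whatever their values. From each list, genes are named that passed with at least 2-fold change and groups without overlap in a line, at most 4 a list (1 gene so chosen is not reported here), and other genes named in the text were chosen after their values were seen. For VEGFA, ADM and ANGPTL4 the 3 genes of highest Pearson's r are named.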

Additional observations from a re-analysis of the deposited data

Results flagged for a closer look

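The hypoxia response of 3 factors differed between HKC-8 and HepG2 cells by edgeR's quasi-likelihood test of the interaction. ADM responded less in HKC-8 cells, with a log2 difference of -1.31 (adjusted p = 0.00287), ADM2 responded more (2.14, adjusted p = 0.000307), and VEGFB responded less (-0.99, adjusted p = 0.000668). Leaving out each sample in turn gave -1.51 to -1.12 for ADM, 1.98 to 2.52 for ADM2 and -1.05 to -0.92 for VEGFB, with adjusted p of at most 0.0121, 0.00177 and 0.00312, so that no single sample ended a call. In all 3 hypoxic HKC-8 samples ADM2 was above every normoxic one, while the HepG2 groups overlapped. The lines also differ in depth and in the oxygen given by their titles, and the part of either in these differences was not tested.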

How the results depend on the processing

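Of the values for single genes, 702 kept their direction and side of the threshold when 1 sample was left out, 14 reversed, 10 gained a call and 27 lost one. Under the other settings 549 did so, 18 gained a call and 7 lost one. In HKC-8 cells the factors called numbered 7 in 1 fit of all 18 samples and 8 with the replicate block, against 4, and all genes called numbered 5013 and 5755, against 2757, with 1013 to 3283 when 1 sample was left out. HKC-8 genes called in the related lists were 12 to 19 with 1 sample left out, against 20. In RCC4 cells the fit of all 18 samples called 3286 genes, against 6423, and 15 genes of the related lists. With the replicate block the response of 5 factors differed between HKC-8 and HepG2 cells, and with at least 10 counts in every sample 4 factors differed in normoxic level between them. The replicate block changed no other call of a factor in HKC-8 cells. In RCC4 cells same-numbered samples did not deviate together throughout (r of -0.0103, 0.0334 and 0.0148). In HepG2 cells they did so weakly (r of 0.165, 0.0617 and 0.184), above the differently numbered pairs (-0.162 to 0.0234). The block gave 6494 genes called in RCC4 and 5857 in HepG2 cells, against 6423 and 5329. Canonical lengths gave shares of VEGFA of 39.5%, 67.2%, 17.3%, 27.0%, 51.4% and 66.3% (normoxia then hypoxia, in HKC-8, RCC4 and HepG2 cells). They gave shares of ADM of 85.0% in hypoxic HKC-8 cells, 50.1% and 95.2% in RCC4 and 72.1% and 96.0% in HepG2 cells. Values that changed sign with 1 sample left out had passed no test. These ranged from -0.28 to 0.17 for PGF and -0.20 to 0.92 for FLT1 in HKC-8, -0.093 to 0.035 for VEGFC in RCC4, and -0.17 to 0.016 for SEMA3A in HepG2 cells. The PGF interaction ranged from -0.11 to 0.33, and the normoxic differences from -0.45 to 0.061 for ADM2 (HKC-8 minus HepG2) and -0.17 to 0.21 for EDN1 (RCC4 minus HepG2). Apart from the changed lengths and the smaller number of samples or genes, the cause was not tested. Values of FLT1, of PGF in the kidney lines and of ANGPTL4 in normoxic HKC-8 cells rest on few counts.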
